A study of Mus musculus with 3 samples.

Results

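Genes of the proteasome were followed across 3 libraries of primary mouse pre-osteoclasts, cells with 1 nucleus that go on to fuse into osteoclasts, the cells that resorb bone. The genes were taken by name: every symbol in the deposited gene table that begins with Psm, then a letter from a to g, then a digit, with a mean of at least 1 FPKM over the 3 libraries. FPKM counts fragments per kilobase of transcript and scales them to the fragments of the library, so it is a level per length and a share. Of 24067 genes in the table, 50 carried such a symbol and 49 reached the level. The gene just outside was Psmb11, the thymus-type catalytic subunit, at a mean of 0.00176 FPKM. The genes just inside were Psma8, the testis-type alpha subunit, at a mean of 1.21 FPKM, and Psmc3ip at 2.61 FPKM. Psmc3ip is a meiotic recombination factor that binds an ATPase subunit and is no proteasome subunit, so it is counted with the rest by the rule of names and described apart.

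The cells came from bone and received MCSF and RANKL, which start osteoclast differentiation, over 2 days. The static control group carried a control short hairpin RNA (shRNA), is labelled wild type and received no shear. The sheared control group carried the same control shRNA, is labelled wild type and received orbital shear stress, fluid flow made by swirling the dish, for 24 hours. The sheared Ift88 group carried an shRNA against Ift88, a transport protein needed to build cilia, is labelled as an Ift88 knockdown and received the same shear. Each group had 1 library, so no difference below has a replicate check, no p-value was computed, and every value describes these libraries. Ift88 shRNA without shear was not analysed here, and what the hairpin does with or without shear cannot be told apart. The sources used here do not give the strain, sex or age of the animals, or say whether cells were pooled.

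The proteasome is the main protease of the cytosol and nucleus for proteins tagged with ubiquitin. Its 20S core is a barrel of alpha and beta rings in which beta subunits do the cutting, and the 19S particle on its ends recognises, unfolds and feeds in the substrate. In immune cells and cells of the macrophage lineage, from which osteoclasts come, interferon-inducible beta subunits replace the constitutive ones to form the immunoproteasome, and osteoclast formation through RANKL relies on proteasomal breakdown of an inhibitor of NF-kappaB.

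Estimated from the spacing of low values, the libraries held about 34920000 to 35360000 fragments. Intervals given with ratios are 95% Clopper-Pearson intervals from these estimates. They take in counting error alone and no difference between cultures, and they are narrower than they should be wherever the transcript lengths used here exceed those the authors used. Ift88 stood at 2.98 FPKM in static control cells, 2.71 FPKM in sheared control cells and 1.197 FPKM in sheared Ift88 shRNA cells, a ratio of 0.442 (0.354 to 0.549) between the sheared libraries, which matches the label. Of 7 pre-osteoclast markers, 6 reached a mean of 1 FPKM, and Ocstamp, a fusion gene, did not, at 0.160 to 0.744 FPKM. The 7 summed to 406 FPKM in static control, 344 FPKM in sheared control and 409 FPKM in sheared Ift88 shRNA cells, of which Csf1r made up 248.5 to 272 FPKM. Acp5, the tartrate-resistant acid phosphatase, was at 97.7, 52.9 and 83.1 FPKM in the same order, the bone-matrix protease Ctsk at 29.4, 12.6 and 18.5 FPKM, and the fusion gene Dcstamp at 5.21, 3.67 and 7.27 FPKM. All 3 were lowest in the sheared control library. Nfatc1, at 16.2, 15.25 and 16.9 FPKM, and Tnfrsf11a, at 8.64, 8.40 and 10.7 FPKM, were lowest there too. Their differences from static control were smaller. Csf1r went the other way with shear, at 248.5, 251 and 272 FPKM, so the markers did not all drop with shear. Markers of other cells moved with the groups too: 5 neutrophil markers summed to 52.8, 20.8 and 24.9 FPKM in the same order, with 3 of the 5 at a mean of at least 1 FPKM and none at 0. Stromal markers, also 3 of 5 at that level and none at 0, summed to 8.80, 5.79 and 8.17 FPKM. Of 5 dendritic markers 2 reached that level, Flt3 was listed at 0 in every library and the sums were 48.0, 41.6 and 47.6 FPKM. Of 5 lymphoid markers, 4 were listed at 0 in every library and the highest sum was 0.0503 FPKM. The part of these marker differences in the proteasome values was not tested, and in bulk samples fewer cells of a type and less RNA per cell cannot be told apart.

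Summed over the 49 genes, proteasome RNA made up 3383 FPKM in static control cells, 3576 FPKM in sheared control cells and 3375 FPKM in sheared Ift88 shRNA cells. This was 0.632%, 0.660% and 0.637% of all FPKM in the respective library. The sheared control library was the highest of the 3, by a ratio of 1.06 to the static control library, and the sheared Ift88 shRNA library stood at 0.944 of it. Both comparisons share the sheared control library, so a deviation of that one library would enter both with opposite sign, and the comparisons are not independent. Within each library, levels ran from 1.22 to 320.4 FPKM (static control), 1.11 to 368 FPKM (sheared control) and 1.30 to 316 FPKM (sheared Ift88 shRNA), with Psma8 lowest and Psmd8 highest in each. The median gene was at 57.7, 60.4 and 59.1 FPKM, against 11.1, 10.9 and 11.04 FPKM for the 10358 genes of the table with a mean of at least 1 FPKM.

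**Figure D1:**
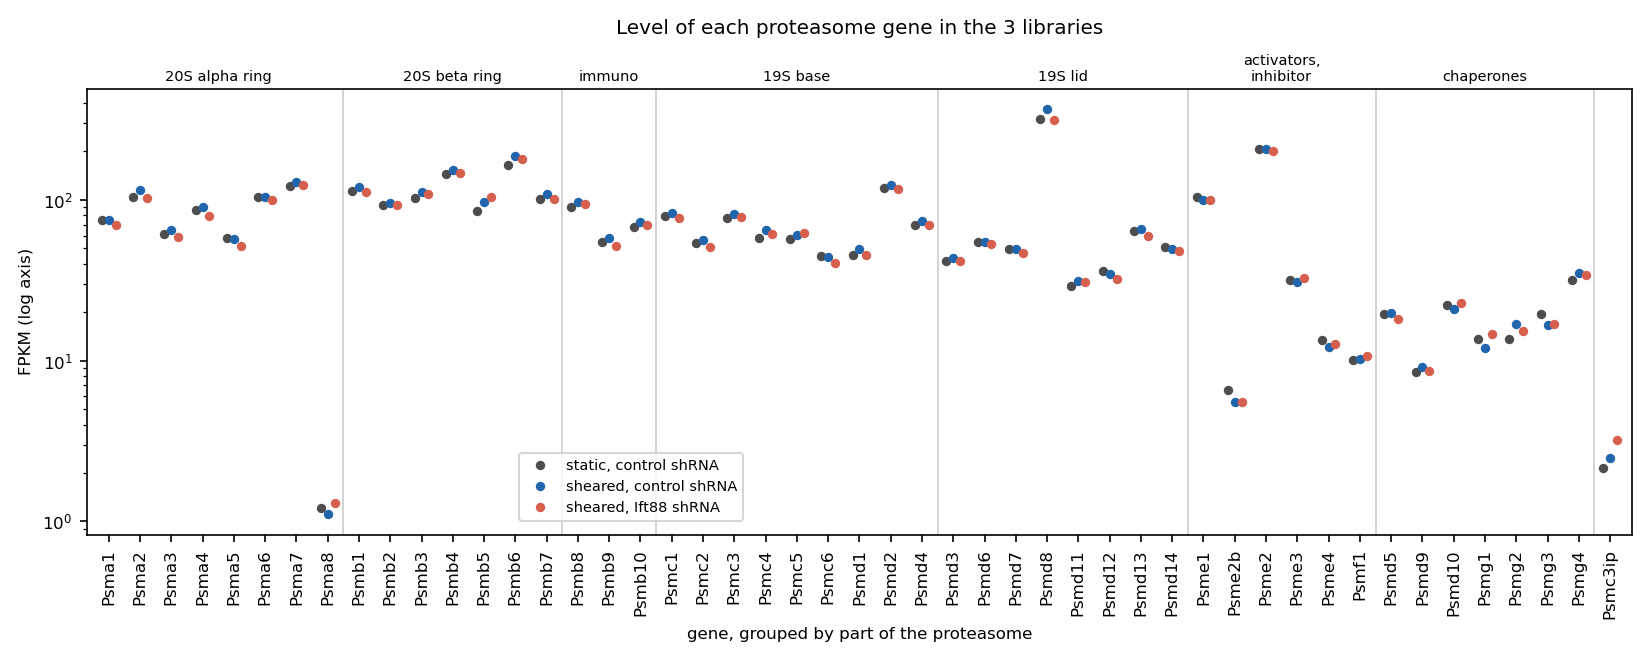
FPKM (log axis) of each of the 49 genes in the 3 libraries, 1 point per library, grouped by part of the proteasome. Core and 19S genes lie mostly between about 30 and 190 FPKM, Psmd8 stands above them at 316 to 368 FPKM, and chaperones, Psme2b, Psma8 and Psmc3ip lie lower; the points of a gene lie close together compared with the range between genes.

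Sheared over static control cells, the question was what shear does to wild-type cells. Proteasome genes were mostly a little higher with shear, and the differences were small. Of the 49 genes 35 were higher and 14 lower, while 46.0% of all genes tested were higher. The median log2 ratio of (FPKM + 1), the scale used for every log2 value here, was 0.066 for the proteasome genes and -0.011 for all genes tested. For 22 of the 48 genes with an interval the counting interval of the FPKM ratio lay wholly above 1, beside 14.6% of the 10043 genes tested that have one, and for 3 wholly below, beside 18.8%. Intervals narrow with the level, and proteasome genes stood at higher levels than most genes tested, so these shares are not like for like. Only Psmg2, a chaperone of alpha ring assembly, was at least 1.2-fold higher on this scale, which is 1 of 49 against a background of 1.94% of all genes tested; none was at least 1.2-fold lower, against 2.26%. At a size of 1.1-fold, chosen after the values were seen, 5 genes were higher (Psmg2, Psmd8, Psmb5, Psmb6 and Psmc4) against a background of 10.3%. At the same size 4 were lower (Psme2b, Psmg3, Psmg1 and Psme4) against 12.4%. The counts past either size were thus near or below the background, and what departs from it is the number of genes with small positive ratios.

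In the sheared cells, Ift88 shRNA over control shRNA, the question was what the Ift88 shRNA does under shear. Proteasome genes were mostly a little lower with Ift88 shRNA. Of the 49 genes 37 were lower and 12 higher, while 46.4% of all genes tested were lower. The median log2 ratio was -0.071, against 0.010 for all genes tested. Counting intervals of the FPKM ratio lay wholly below 1 for 23 of 48 genes, beside 14.0% of genes tested, and wholly above 1 for 2, Psmb5 and Psmg1, beside 19.2%, with the same difference in level. On the scale of (FPKM + 1) only Psmc3ip was at least 1.2-fold higher, 1 of 49 against a background of 3.25%, with Psmg1 just short of it and past it by plain FPKM ratio, at 1.21. On the same scale none was at least 1.2-fold lower, against 2.29%. At 1.1-fold on that scale, 6 genes were lower (Psmd8, Psma4, Psmb9, Psma2, Psma5 and Psmc2) against a background of 9.92%. At that size 2 were higher, Psmc3ip and Psmg1, against 13.4%. Scaling every library to the same FPKM total changed the split to 33 lower and 16 higher, beside 35.8% of all genes lower, and in the shear comparison to 31 higher and 18 lower, beside 40.6% of all genes higher.

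By role, most core and 19S genes stood on one side of 0, and the other parts were divided. The 34 genes of the core, the immunoproteasome and the 19S particle without Psma8, a grouping made after the values were seen, had 29 genes higher and 5 lower with shear, with a median log2 ratio of 0.084. With Ift88 shRNA 2 of the 34 were higher and 32 lower, with a median of -0.086. Their sums were 2878 FPKM in static control, 3077 FPKM in sheared control and 2876 FPKM in sheared Ift88 shRNA cells. The 13 activators, inhibitor and chaperones had 5 genes higher and 8 lower with shear (median -0.037), and 8 higher and 5 lower with Ift88 shRNA (median 0.015). Of all genes tested, 46.0% were higher with shear and 46.4% lower with Ift88 shRNA. Taken alone, the 7 chaperones had a shear median of 0.036, like the alpha ring at 0.036 and above the lid at 0.029. Their Ift88 shRNA median was -0.033. Transcript length and GC content moved with these ratios. Over 10268 genes, which share their libraries, Spearman's rho with length was -0.281 for the shear ratio and 0.163 for the Ift88 shRNA ratio. With GC content it was 0.343 and 0.062, as a description. The proteasome genes have a median transcript of 1410 bases, against 2814 bases for all genes tested, and a median GC content of 49.8% against 50.3%. With ratios centred among genes of like length and GC content, 33 of the 49 were still higher and 16 lower with shear (median 0.050), and 35 were lower and 14 higher with Ift88 shRNA (median -0.066). Centred in this way, the shear median was 0.060 for the chaperones, 0.061 for the 19S base and 0.0022 for the 19S lid.

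**Figure D2:**
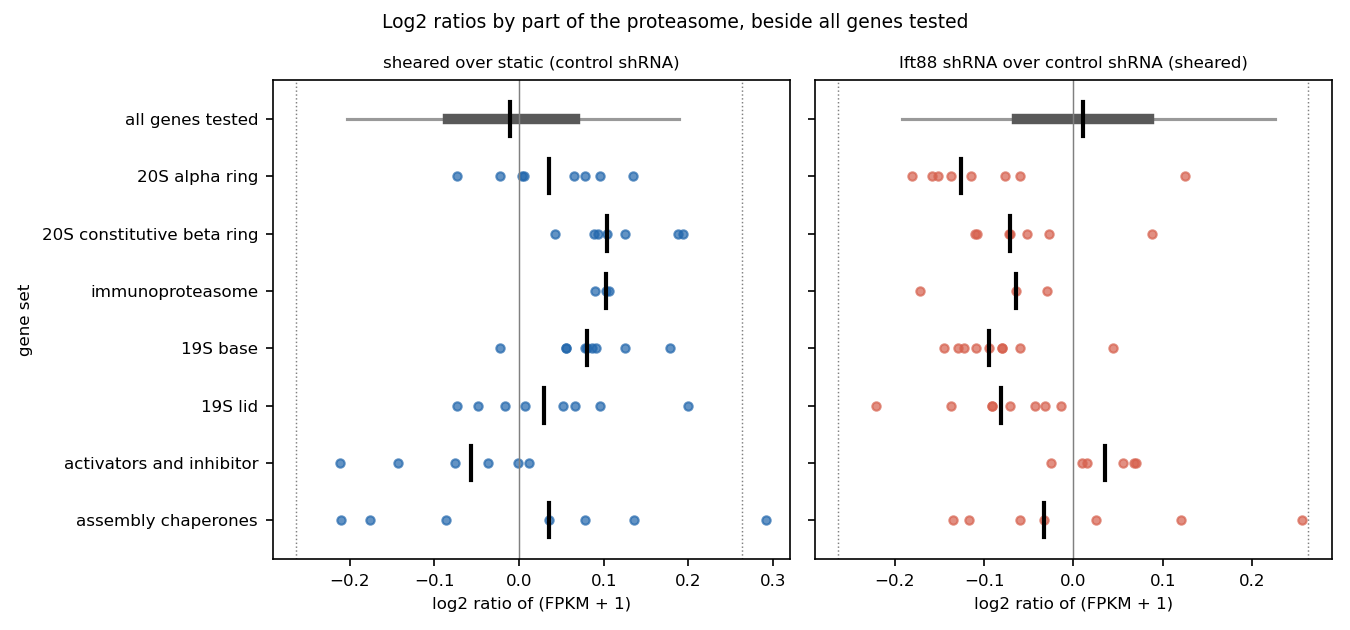
Log2 ratio of (FPKM + 1) for each gene (points) by part of the proteasome, with the median of the part (black bar), for sheared over static control cells (left) and Ift88 over control shRNA in sheared cells (right); the top row gives all genes tested as the 25th to 75th percentile (thick bar), the 5th to 95th (thin bar) and the median. Dotted lines mark 1.2-fold. Core and 19S parts sit to the right of 0 by their medians on the left panel and to the left of 0 on the right panel, and activators with the inhibitor the other way round.

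The alpha ring forms the gate of the core, through which substrates enter. Its 8 genes summed to 612, 638 and 587 FPKM in static control, sheared control and sheared Ift88 shRNA cells, so the ring was lowest with Ift88 shRNA. With shear 6 were higher and 2 lower, with a median log2 ratio of 0.036; with Ift88 shRNA 7 were lower and 1 higher, with a median of -0.126, the lowest median among the parts. Scaled to equal FPKM totals the shear split became 4 higher and 4 lower. The highest of the ring was Psma7, at 122 FPKM in static control, 129.9 FPKM in sheared control and 123 FPKM in sheared Ift88 shRNA cells. Psma2 stood at 105 FPKM in static control, 115 FPKM in sheared control and 103 FPKM in sheared Ift88 shRNA cells. Its FPKM ratio was 1.099 (1.07 to 1.13) with shear and 0.895 (0.871 to 0.920) with Ift88 shRNA, so the sheared control library stood above both others. Psma4 stood at 86.4, 90.5 and 79.7 FPKM in the same order, with ratios of 1.05 (0.996 to 1.102) and 0.881 (0.837 to 0.928), so only the interval between the sheared libraries left out 1. Psma8, the testis-type alternative to Psma7, was at 1.22, 1.11 and 1.30 FPKM from an estimated 59 to 69 fragments. Psma7 was at 94.9 to 117.5 times its level, and the intervals of the Psma8 ratios, 0.628 to 1.32 and 0.816 to 1.69, include 1. The other 4 genes (Psma1, Psma3, Psma5 and Psma6) lay between 51.4 and 104 FPKM.

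The constitutive beta ring holds the 3 active sites, on Psmb5 (chymotrypsin-like), Psmb6 (caspase-like) and Psmb7 (trypsin-like). Its 7 genes summed to 805 FPKM in static control, 878 FPKM in sheared control and 845 FPKM in sheared Ift88 shRNA cells. All 7 were higher with shear, with a median log2 ratio of 0.104, and 6 of 7 were lower with Ift88 shRNA, with a median of -0.071. Centred for length and GC content, 6 of the 7 were higher with shear. Under equal totals 2 of the 7 were higher with Ift88 shRNA. Psmb5 stood at 85.2 FPKM in static control, 97.7 FPKM in sheared control and 104 FPKM in sheared Ift88 shRNA cells. By the FPKM as deposited it was the 1 beta gene higher in both comparisons, by ratios of 1.15 (1.08 to 1.22) and 1.06 (1.006 to 1.13). Psmb6, the highest of the ring, stood at 165, 189 and 179 FPKM, with ratios of 1.14 (1.09 to 1.19) and 0.951 (0.910 to 0.994). Static control cells had the lowest level of both genes. Psmb7 stood at 101, 109 and 101 FPKM, so only the sheared control library was higher, by a ratio of 1.08 (1.03 to 1.13) over static control cells. Its exons share 405 bases with Nek6 on the other strand, and how strand was treated is not given, so fragments of the 2 genes cannot be told apart there. Psmb5 shares 109 exon bases with Mir686 on the same strand. Mir686 was listed at 3.5e-05 FPKM in static control, 4.1e-05 FPKM in sheared control and 0.461 FPKM in sheared Ift88 shRNA cells. What this overlap adds to the Psmb5 ratio was not tested. Psmb2, the lowest of the ring on average, was at 92.4, 95.3 and 93.5 FPKM, and both intervals of its ratio include 1. The 3 structural genes Psmb1, Psmb3 and Psmb4 lay between 103 and 154 FPKM. Psmb5, Psmb6, Psmb7 and the alpha gene Psma5 each have a pseudogene of their name in the RefSeq gene table, and fragments could be divided between such copies.

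The immunoproteasome subunits Psmb8, Psmb9 and Psmb10 replace Psmb5, Psmb6 and Psmb7 in turn, and were expressed at 51.6 to 96.8 FPKM in all 3 libraries. Psmb8 and Psmb9 lie in the major histocompatibility region at chr17:34198195-34201454 and chr17:34182030-34187330 (GRCm38), next to the peptide transporter genes Tap1 and Tap2. Psmb10 lies at chr8:105935728-105938392. Psmb8 stood at 89.9 FPKM in static control, 96.8 FPKM in sheared control and 94.8 FPKM in sheared Ift88 shRNA cells. Psmb9 stood at 54.7, 58.3 and 51.6 FPKM, and Psmb10 at 68.0, 73.1 and 69.9 FPKM. All 3 were therefore highest in sheared control cells, with shear ratios of 1.08 (1.03 to 1.12), 1.07 (1.006 to 1.13) and 1.07 (1.02 to 1.13). With Ift88 shRNA the ratios were 0.979 (0.941 to 1.02) for Psmb8, 0.886 (0.835 to 0.940) for Psmb9 and 0.956 (0.907 to 1.008) for Psmb10, so only Psmb9 had an interval that left out 1. Scaled to equal totals, 1 of the 3 was higher with Ift88 shRNA.

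The immunoproteasome subunit made up a different share of each active-site pair. Psmb8 was 51.3% (50.03 to 52.6) of Psmb8 plus Psmb5 in static control cells, 49.8% (48.6 to 51.0) in sheared control cells and 47.7% (46.5 to 48.9) in sheared Ift88 shRNA cells. Psmb9 was 24.9% (23.9 to 25.9) of its pair with Psmb6 in static control, 23.6% (22.7 to 24.5) in sheared control and 22.4% (21.5 to 23.3) in sheared Ift88 shRNA cells. For both pairs the intervals of static control and sheared Ift88 shRNA cells do not overlap, and that of sheared control cells lies between them and overlaps both. These 2 groups differ in both shear and hairpin, and the 2 cannot be told apart in that difference. Counting intervals leave out length and GC content, and the genes of a pair differ in length. Centred for both, the shear log2 ratio was 0.095 for Psmb5 and 0.086 for Psmb8, from 0.194 and 0.106. For Psmb6 and Psmb9 it was 0.1115 and 0.057, from 0.188 and 0.090. With Ift88 shRNA the centred ratios were 0.086 for Psmb5, -0.034 for Psmb8, -0.040 for Psmb6 and -0.178 for Psmb9. Psmb10 was 40.2% (39.0 to 41.4), 40.2% (39.0 to 41.4) and 41.0% (39.8 to 42.2) of its pair with Psmb7, with intervals that overlap throughout. Over the 3 pairs together the immunoproteasome share was 37.7% in static control, 36.6% in sheared control and 36.1% in sheared Ift88 shRNA cells. FPKM shares are shares of RNA per length and say nothing of the assembled particles.

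**Figure D3:**
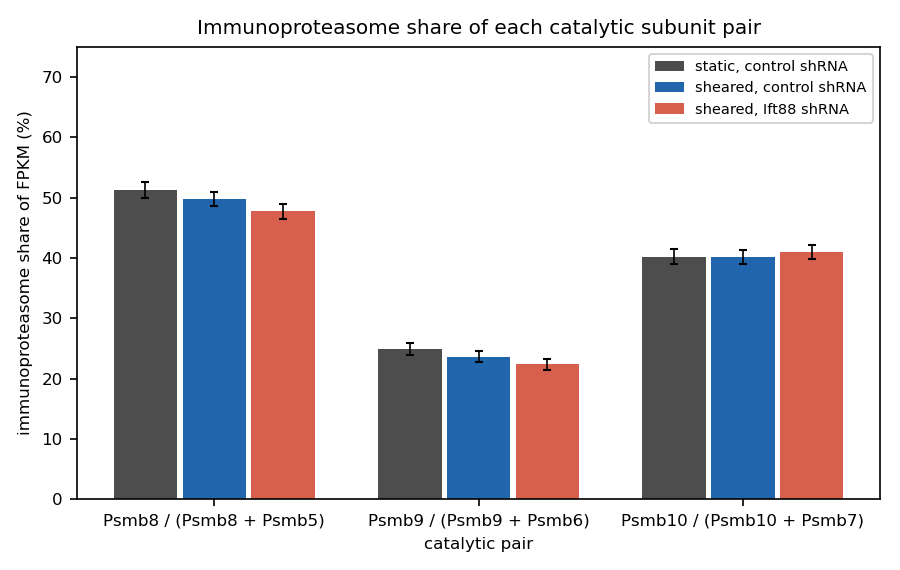
Immunoproteasome subunit as a percentage of the FPKM of its active-site pair (y axis from 0) in the 3 libraries, with 95% counting intervals as error bars. The Psmb8 share goes from 51.3% to 47.7% and the Psmb9 share from 24.9% to 22.4% between static control and sheared Ift88 shRNA cells, while the Psmb10 share stays between 40.2% and 41.0%.

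Promoter letters were read in windows from 250 bases before to 50 after the start of each gene (RefSeq, GRCm38.p6), which were given for 41 of the 49 genes and not for Psma8, Psmb1, Psmb2, Psmb7, Psmc3, Psmd3, Psmd7 and Psmg2. Both strands were searched for each motif, and none of the 57 matches in proteasome genes overlapped a match of a different motif. Overlaps between matches of the same motif were not counted, and the CCAAT matches of Psmd14 that begin at bases 5 and 8 overlap. A gene can have more than 1 window, and it was counted once if any of them held the motif. TGACNNNGC, the core of the antioxidant response element that Nfe2l1 and Nfe2l2 bind, was in 6 of the 41 genes (14.6%). This stands against 14.0% of all 27025 genes with a window and 17.3% of the 8393 genes tested that have one. The 6 are Psmb5, Psmb6, Psmc6, Psmd12, Psmd9 and Psme4. By the FPKM as deposited, Psmb5 and Psmb6 are the 2 core genes with the largest shear ratios. Centred for length and GC content, their log2 shear ratios were 0.095 and 0.1115. Psma2 at 0.1915 and Psma3 at 0.134, which are not among the 6, stood above them. The stretches around the match, with the matched letters in capitals and each read 5′ to 3′ on the strand of the gene, are shown because these factors are the known regulators of proteasome genes:
Psmb5: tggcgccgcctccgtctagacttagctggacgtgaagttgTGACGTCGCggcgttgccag
Psmb6: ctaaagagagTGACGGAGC
Psmd9: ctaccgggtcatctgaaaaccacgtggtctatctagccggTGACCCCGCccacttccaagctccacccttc
Psmc6: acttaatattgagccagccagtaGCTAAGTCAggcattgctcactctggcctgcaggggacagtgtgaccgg
Psmd12: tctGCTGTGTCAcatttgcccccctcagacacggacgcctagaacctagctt
These lie at chr14:54618023-54618082 on the minus strand (Psmb5), chr11:70525338-70525356 on the plus strand (Psmb6), chr5:123228119-123228189 on the plus strand (Psmd9), chr14:45329574-45329645 on the plus strand (Psmc6) and chr11:107479278-107479329 on the plus strand (Psmd12). None overlaps an exon of GENCODE M21. The start used for Psmb6 lies inside the span that the RefSeq gene table gives for the gene, which begins at 70525324. In Psmc6 and Psmd12 the match is on the other strand. The match of Psme4 runs across its start and is not shown. With shear the FPKM ratios of the 6 genes lay on both sides of 1: 0.899 for Psme4, 1.15 for Psmb5, 1.14 for Psmb6, 1.06 for Psmd9, 0.984 for Psmc6 and 0.9495 for Psmd12.

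GAAANNGAAA, the core of the interferon-stimulated response element, was in 5 of the 41 genes (12.2%). This stands against 3.99% of all genes with a window and 3.79% of the genes tested that have one. The 5 are Psmb3, Psmd4, Psmd9, Psme1 and Psmg4. The stretches of the genes whose match lies before the start are shown, with the match in capitals, beside the values of the interferon-related genes below:
Psmb3: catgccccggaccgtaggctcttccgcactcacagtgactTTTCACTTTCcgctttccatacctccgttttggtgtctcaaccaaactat
Psmd4: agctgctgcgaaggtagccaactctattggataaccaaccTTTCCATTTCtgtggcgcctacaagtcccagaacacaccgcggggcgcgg
Psmd9: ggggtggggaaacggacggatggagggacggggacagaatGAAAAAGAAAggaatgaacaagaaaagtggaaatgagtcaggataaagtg
In Psmb3 and Psmd4 the match is on the other strand. The stretches lie at chr11:97703231-97703320 on the plus strand (Psmb3), chr3:95042645-95042734 on the minus strand (Psmd4) and chr5:123227991-123228080 on the plus strand (Psmd9). The windows of Psmb8, Psmb9 and Psmb10 do not hold these letters, which says nothing about sites elsewhere. CCAAT, bound by NF-Y, was in 14 genes (34.2%, against 41.1% of all genes with a window and 43.2% of the genes tested that have one). CCGGAAG, the core bound by ETS factors, was in 15 (36.6%, against 9.93% and 22.7%). Which of these letters are bound in these cells was not measured.

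The 19S base opens the core and unfolds the substrate with a ring of 6 ATPases, Psmc1 to Psmc6, beside the scaffold subunits Psmd1 and Psmd2 and the ubiquitin receptor Psmd4. The 9 base genes summed to 603 FPKM in static control, 638 FPKM in sheared control and 602 FPKM in sheared Ift88 shRNA cells. With shear 8 were higher and 1 lower, with a median log2 ratio of 0.081; with Ift88 shRNA 8 were lower and 1 higher, with a median of -0.095. The 6 ATPases ran from 43.9 to 82.7 FPKM in sheared control cells, a narrow range for genes whose products stand in equal number. Psmc4 had the largest shear ratio of the base, at 57.7 FPKM in static control, 65.4 FPKM in sheared control and 61.2 FPKM in sheared Ift88 shRNA cells, with ratios of 1.13 (1.07 to 1.196) and 0.936 (0.888 to 0.987). Psmc5 was the base gene that stood higher with Ift88 shRNA, at 56.9, 60.4 and 62.4 FPKM, and its interval of 0.975 to 1.09 includes 1. Psmc6, the lowest of the base, was the one lower with shear, at 44.6, 43.9 and 40.2 FPKM, with ratios of 0.984 (0.937 to 1.03) and 0.917 (0.871 to 0.964). Psmc1 stood at 79.5, 82.7 and 76.6 FPKM, Psmc2 at 53.6, 56.6 and 51.1 FPKM and Psmc3 at 76.7, 81.2 and 77.9 FPKM. Each of these 3 was highest in the sheared control library, and the shear interval of Psmc1, 0.995 to 1.09, includes 1. Psmd2, the highest of the base, was at 119, 124 and 117 FPKM, with ratios of 1.04 (1.013 to 1.07) and 0.946 (0.922 to 0.970). Psmd1 and Psmd4 lay between 45.4 and 74.1 FPKM, and Psmd1 shares 252 exon bases with Htr2b, at 0.719 to 1.30 FPKM, on the other strand.

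The 19S lid removes ubiquitin chains, through the metalloprotease Psmd14, and holds the particle together. Its 8 genes summed to 647, 697 and 628 FPKM in static control, sheared control and sheared Ift88 shRNA cells. With shear 5 were higher and 3 lower, with a median log2 ratio of 0.029 that came to 0.0022 when centred for length and GC content. Under that centring, and also under equal totals, the shear split was 4 higher and 4 lower. All 8 were lower with Ift88 shRNA, with a median of -0.081; under equal totals and under the centring for length and GC content 7 of 8 were. Psmd8 made up most of the differences in the sums. It stood at 320.4 FPKM in static control, 368 FPKM in sheared control and 316 FPKM in sheared Ift88 shRNA cells, from an estimated 14711 to 17204 fragments. Its FPKM ratio was 1.15 (1.12 to 1.17) with shear and 0.857 (0.839 to 0.877) with Ift88 shRNA, so the sheared control library stood above both others. The mean of Psmd8, 335 FPKM, is 6.84 times the median of the lid, 49.0 FPKM, although the subunit is present in equal number with the others in the particle. Without Psmd8 the 16 other 19S genes named Psm spanned 30.5 to 119.9 FPKM on average. The small subunit Sem1, listed as Shfm1 and outside the rule of names, was at a like level to Psmd8. It stood at 357 FPKM in static control, 341.5 FPKM in sheared control and 310 FPKM in sheared Ift88 shRNA cells. Its ratios were 0.956 (0.935 to 0.9775) with shear and 0.907 (0.886 to 0.928) with Ift88 shRNA. Psmd14 was at 50.9, 49.2 and 47.7 FPKM, with ratios of 0.967 (0.913 to 1.02) and 0.970 (0.915 to 1.03). Psmd11, the lowest of the lid, was at 29.3, 31.3 and 31.0 FPKM, with a shear ratio of 1.07 (1.02 to 1.13). The other 5 (Psmd3, Psmd6, Psmd7, Psmd12 and Psmd13) lay between 32.2 and 66.0 FPKM.

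Activators replace the 19S particle on the end of the core, and the inhibitor Psmf1 competes with them. The 6 genes summed to 373 FPKM in static control and 364 FPKM in both sheared libraries. With shear 1 was higher and 5 lower, with a median log2 ratio of -0.056; with Ift88 shRNA 5 were higher and 1 lower, with a median of 0.035. This is the opposite of the core and 19S parts by median in each comparison, and under equal totals all 6 were lower with shear and all 6 higher with Ift88 shRNA. Centred on the median of all genes, 4 were lower and 2 higher with shear, and 4 higher and 2 lower with Ift88 shRNA. Of all genes tested, 53.95% were lower with shear and 53.6% higher with Ift88 shRNA as deposited. Under equal totals these shares rose to 59.4% and 64.2%. None of the 6 had an Ift88 shRNA interval that left out 1. Psme1 and Psme2 form the interferon-inducible PA28 ring. Psme1 was at 105 FPKM in static control, 99.2 FPKM in sheared control and 100.3 FPKM in sheared Ift88 shRNA cells, with a shear ratio of 0.949 (0.904 to 0.996). Psme2, the highest of the group, was at 206 FPKM in both control libraries and 203 FPKM with Ift88 shRNA, 1.97 to 2.08 times the level of Psme1. Psme3, the nuclear PA28 subunit, was at 31.9, 31.0 and 32.6 FPKM, with ratios of 0.974 (0.924 to 1.03) and 1.05 (0.997 to 1.11). Psme4, the activator PA200, was at 13.5, 12.1 and 12.6 FPKM, as deposited the largest shear difference among the group's well-covered genes. Its ratios were 0.899 (0.853 to 0.947) and 1.04 (0.988 to 1.099), so the static control library stood above the sheared control library. Centred for length and GC content, the log2 shear ratio was -0.052 for Psme4, -0.053 for Psme2 and -0.152 for Psme1. Psmf1 was at 10.1, 10.2 and 10.7 FPKM, and both intervals include 1. Psme2b, a near copy of Psme2, was at 6.53, 5.50 and 5.55 FPKM. Its shear ratio of 0.843 has an interval of 0.662 to 1.08, and with Psme2 at 31.6 to 37.5 times its level the division of fragments between the copies makes it uncertain.

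The assembly chaperones build the particle and leave it, and were the least uniform part. Their 7 genes summed to 129, 130.4 and 131 FPKM, with 4 higher and 3 lower with shear and 3 higher and 4 lower with Ift88 shRNA. Psmg1 and Psmg2 form a pair that starts the alpha ring, yet they differed in opposite directions with shear. Psmg2 stood at 13.6 FPKM in static control, 16.8 FPKM in sheared control and 15.2 FPKM in sheared Ift88 shRNA cells, with ratios of 1.24 (1.09 to 1.41) and 0.906 (0.798 to 1.03). Psmg1 stood at 13.7, 12.0 and 14.6 FPKM, with ratios of 0.877 (0.759 to 1.012) and 1.21 (1.05 to 1.40). The sheared control library was thus highest for Psmg2 and lowest for Psmg1. Psmg3 was at 19.5, 16.7 and 17.0 FPKM, with a shear ratio of 0.857 (0.749 to 0.981). Its partner Psmg4, the highest chaperone, was at 31.7, 34.97 and 34.2 FPKM. Psmg4 has no interval, because its listed transcripts were not all matched and longer than 500 bases. These 3 genes with intervals rest on an estimated 363 to 517 fragments. The 3 chaperones of the 19S base are Psmd5, Psmd9 and Psmd10. Psmd9, the lowest on average, was at 8.54, 9.08 and 8.67 FPKM; the other two lay between 18.2 and 22.9 FPKM.

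**Figure D4:**
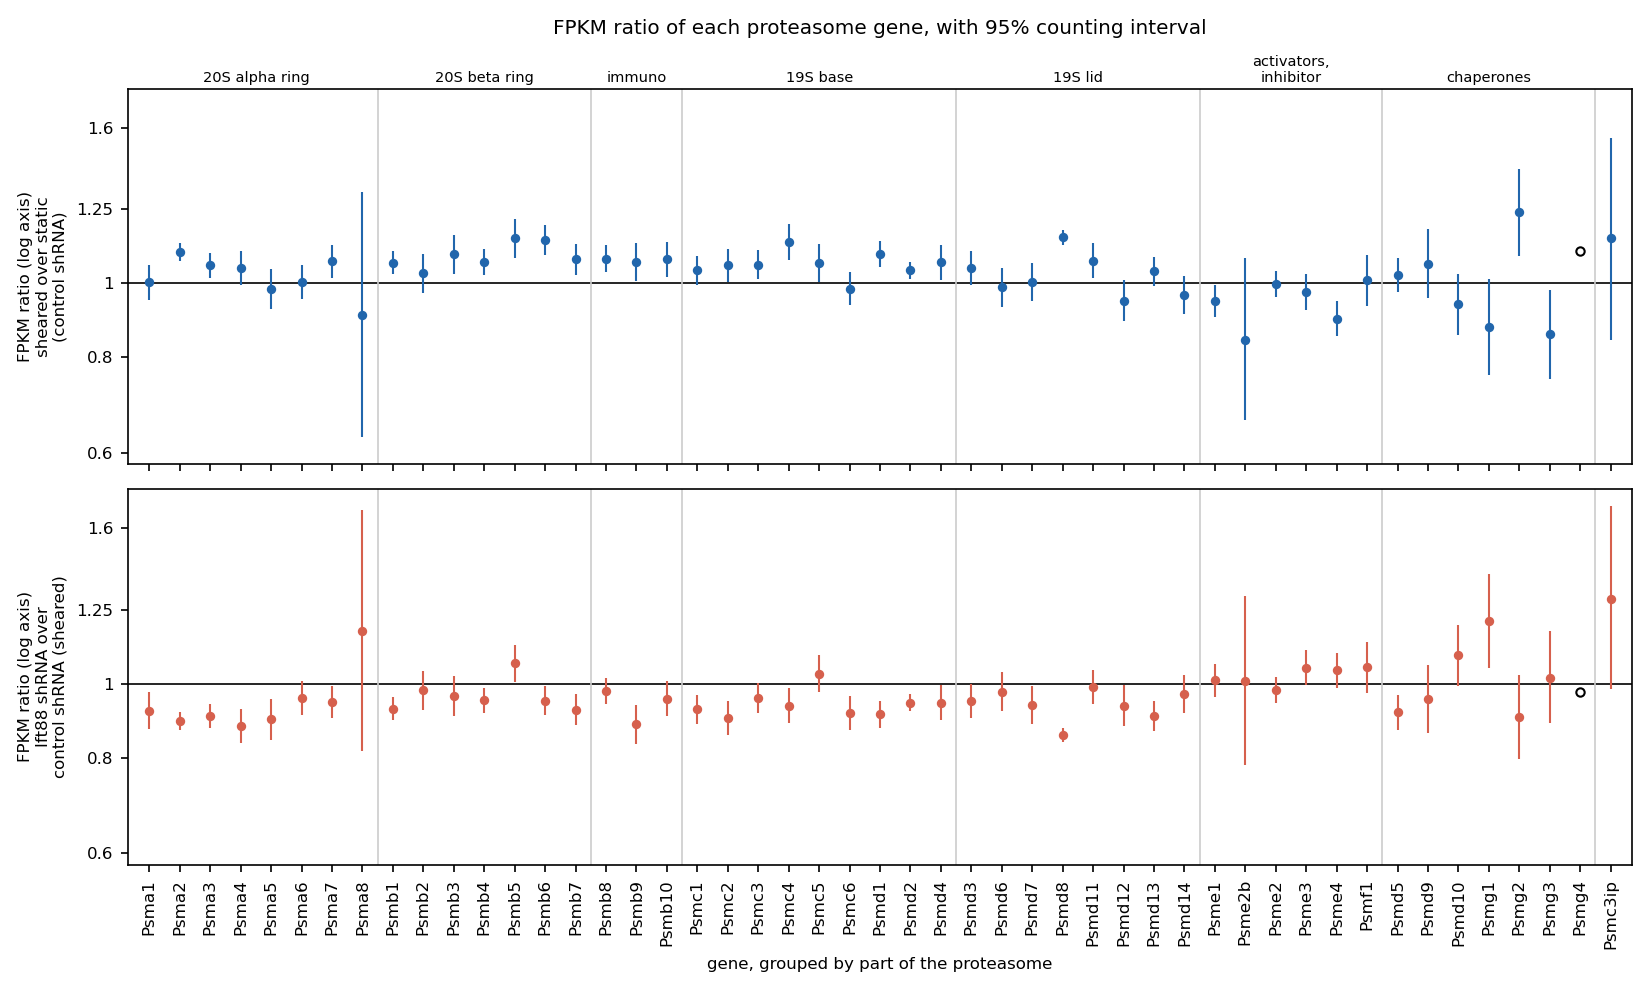
FPKM ratio (log axis) of each gene for sheared over static control cells (top) and Ift88 over control shRNA in sheared cells (bottom), with 95% counting intervals; open circles have no interval, and the line marks 1. Most core and 19S ratios lie above 1 in the top panel and below 1 in the bottom panel, and intervals are wide for Psma8, Psme2b and Psmc3ip.

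Psmc3ip was at 2.16 FPKM in static control, 2.48 FPKM in sheared control and 3.20 FPKM in sheared Ift88 shRNA cells. Its ratios were 1.15 (0.843 to 1.55) and 1.29 (0.984 to 1.71), so neither interval leaves out 1. Its exons share 385 bases with Mlx, at 18.1 to 19.8 FPKM, on the other strand, which makes its level uncertain.

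Beside the genes named Psm, 30 genes of the ubiquitin and proteasome pathway were listed, and all 30 reached a mean of 1 FPKM. With shear 14 were higher and 16 lower, beside 46.0% of all genes tested higher, with a median log2 ratio of -0.0043. With Ift88 shRNA 12 were higher and 18 lower, beside 46.4% of all genes tested lower, with a median of -0.010. Uba6, a ubiquitin-activating enzyme, was at 6.79 FPKM in static control, 5.81 FPKM in sheared control and 5.81 FPKM in sheared Ift88 shRNA cells, with a shear ratio of 0.856 (0.794 to 0.922). Nfe2l2, the antioxidant-response factor, was at 192, 170.0 and 180.3 FPKM, with a shear ratio of 0.885 (0.864 to 0.905). With Ift88 shRNA the largest ratio was that of Nfe2l1, the factor that drives proteasome genes when the proteasome is impaired. Nfe2l1 was at 61.5 FPKM in static control, 62.6 FPKM in sheared control and 51.6 FPKM in sheared Ift88 shRNA cells, a ratio of 0.824 (0.798 to 0.851) to sheared control cells. Adrm1, the ubiquitin receptor of the 19S base that is not named Psm, was at 55.2, 57.9 and 48.4 FPKM, with an Ift88 shRNA ratio of 0.836 (0.791 to 0.884). Akirin2, which carries proteasomes into the nucleus, was at 27.0, 26.7 and 30.5 FPKM, with an Ift88 shRNA ratio of 1.15 (1.06 to 1.24).

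The interferon and class I antigen processing list had 16 genes, all at a mean of at least 1 FPKM, and serves as a setting for the immunoproteasome. It had 7 genes higher and 9 lower with shear (median -0.017), beside 46.0% of all genes tested higher (median -0.011). With Ift88 shRNA 5 were higher and 11 lower (median -0.013), beside 46.4% of all genes tested lower (median 0.010). Tap1, beside Psmb9, was at 28.0, 27.8 and 26.3 FPKM in static control, sheared control and sheared Ift88 shRNA cells, and Tap2 at 33.4, 33.5 and 33.4 FPKM, with intervals that include 1 in both comparisons. Nlrc5, the activator of class I genes, was at 7.58, 6.77 and 7.002 FPKM, with a shear ratio of 0.893 (0.835 to 0.956). Tapbpl, a peptide editor, was at 10.1, 11.3 and 9.01 FPKM, with ratios of 1.12 (1.02 to 1.24) and 0.797 (0.720 to 0.882). Tapbp, which links peptide loading to the transporter, was at 135, 137 and 157 FPKM, with an Ift88 shRNA ratio of 1.14 (1.12 to 1.17).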

How the data were processed

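RNA was extracted with TRIzol and libraries were made with the TruSeq mRNA kit, per the labels' protocols. The authors deposited FPKM for 24067 genes in 1 table, and none of its per-sample columns was left unmapped (0). Per the submitters' processing notes the tools were Cufflinks 2.2.1, TopHat2 2.0.13, Trimmomatic 0.32 and bcl2fastq 1.8.4, on mm10; their settings and the handling of strand were not given in the sources used here. Cufflinks divides fragments between like copies by estimation.

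Ratios were taken on log2(FPKM + 1) over 10358 genes with a mean of at least 1 FPKM, a scale that understates differences of low genes; ratios of FPKM carry no added 1. Depth came from whole-fragment steps of low values (61.7% to 62.8% whole within 0.1), with lengths from GENCODE M21 transcripts matched to RefSeq. Fragments were estimated for genes whose listed transcripts were all matched and longer than 500 bases. The interval calculation was tested on simulated data. Coordinates come from the RefSeq gene table of GRCm38. Sizes of 1.2-fold and, added after the values were seen, 1.1-fold were counted. Genes and lists were chosen with earlier results of these data known. Named genes were fixed roles (catalytic, immunoproteasome, activators, inhibitor, Psmg chaperones, ATPases, Psmd14), the 6 largest ratios per comparison, the highest and lowest gene of each part, and the 3 largest ratios per comparison in each pathway list, of which some are not reported here; a few others were named after their values were seen. Alternatives changed the pseudocount, the filter, the scaling, the centring and the members. Python 3.11.15, numpy 2.4.6, pandas 2.3.3, scipy 1.17.1 and matplotlib 3.10.9 were used.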

Additional observations from a re-analysis of the deposited data

How the results depend on the processing

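No direction of the medians over all proteasome genes reversed under any of the 9 alternatives. The shear median log2 ratio was 0.048 with equal FPKM totals, 0.077 centred on the median of all genes, 0.050 centred by length and GC content, and 0.077 (0.07749) without the near copies Psme2 and Psme2b. The Ift88 shRNA median was -0.039 with equal totals and -0.081 centred on the median of all genes. Centred by length and GC content, 0 genes were at least 1.2-fold higher with shear and 1, Psmg3, at least 1.2-fold lower. The count at least 1.2-fold higher with Ift88 shRNA was 2 (Psmc3ip and Psmg1) with a pseudocount of 0.1, with equal totals and with the length and GC centring. It was 0 with a mean of at least 5 FPKM, centred on the median of all genes, and without Psmc3ip. Leaving out Psmc3ip, and leaving out 4 genes with a pseudogene of their name, were alternatives chosen after the data were seen. No paired analysis was possible because each group has 1 library. Depth limits Psma8, Psme2b, Psmc3ip and the Psmg genes most.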
